A study of Mus musculus with 9 samples.

Results

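Free 15d-PGJ2 and 15d-PGJ2-PC, the phospholipid form of that prostaglandin, were compared directly in mouse macrophages given either compound at 1 µM for 6 h. The comparison covers every gene of the deposited expression table, 18049 in all, in 6 of the 9 libraries of the study: 3 with 15d-PGJ2-PC and 3 with 15d-PGJ2. The other 3 libraries are controls kept in medium alone, and they give the level of each gene without either compound. These controls also held skin, connective tissue and erythroid transcripts that were lower in both treated groups. The part of such transcripts in comparisons with control was not tested. All cells were macrophages grown from bone marrow of C57BL/6 mice aged 8 weeks and cultured in RPMI, with no genetic change named in the labels. The labels name no vehicle and do not spell out PC, so nothing more is said of the structure here. Nothing in them says if replicate libraries were grown or collected apart, and the p-values then speak only of how far libraries of 1 group spread, which could be technical in origin.

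15d-PGJ2 is a cyclopentenone prostaglandin whose reactive ring can bind cysteines of proteins. It is known as a ligand of the nuclear receptor PPARγ, and as an electrophile that frees the antioxidant factor Nrf2 from its inhibitor Keap1, activates heat shock factor and blocks steps of NF-κB and JAK-STAT signalling. In macrophages it is best known as an anti-inflammatory lipid, and prostaglandins can also occur bound within membrane phospholipids, from which phospholipases may release them.

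Levels are FPKM (fragments per kilobase of transcript, scaled to sequencing depth). The 9 libraries had 10876 to 11026 genes at 1 FPKM or more. Their depth was estimated at 5.37 to 5.48 M reads each, from the step that 1 read makes in the values. That step was sought only in a preset window of 0.16 to 0.2 per M reads. The window bounds the estimate, which therefore cannot show that the libraries were alike in depth. Macrophage markers were high in all libraries (Lyz2, lysozyme, at 3940.2, 3192 and 3602 FPKM in control, 15d-PGJ2 and 15d-PGJ2-PC). Transcripts of skin and connective tissue were seen mainly in the controls: the 13 listed stromal markers summed to 52.2 to 60.5 FPKM in controls, 13.8 to 18.3 with 15d-PGJ2 and 12.4 to 12.7 with 15d-PGJ2-PC, and the skin markers to 33.5 to 37.5, 2.34 to 3.85 and 1.83 to 3.60. The epidermal genes Krt5, Krt1, Krt14 and Lor were listed at 0 in all 6 treated libraries. Between the compounds, 1 of 8 tested stromal markers passed, Acta2. Of these 8, Col3a1 reached the filter through the controls, with means of 7.12, 0.083 and 0.107 FPKM in control, 15d-PGJ2 and 15d-PGJ2-PC. The skin markers reached the filter through the controls, and with levels at or near 0 in most of the treated libraries no comparison of the compounds is drawn from them. Replication histone transcripts and RNAs without a poly(A) tail, which library selection by the tail mostly removes, summed to 1011 to 1045 FPKM with 15d-PGJ2, 556 to 601 with 15d-PGJ2-PC and 484 to 576 in controls. On this measure the 15d-PGJ2 libraries stood apart from the other 6, and its part in the results was not tested. In bulk RNA, fewer cells of a type and less RNA per cell cannot be told apart. Stromal markers that were lower went from 1 to 0 with 15d-PGJ2 replicate 1 or 3 or 15d-PGJ2-PC replicate 1, 2 or 3 left out.

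Macrophages given 15d-PGJ2-PC had lower heat shock, proteasome and antioxidant transcripts and higher interferon-induced, endoplasmic reticulum and macrophage marker transcripts than those given free 15d-PGJ2. Of 11309 tested genes, 2335 (20.6%) differed between the compounds, 1396 (12.3%) higher with 15d-PGJ2-PC and 939 (8.3%) lower. A gene is counted as different, or as having passed, where limma's moderated test on log2(FPKM + 1) gave an adjusted p under 0.05. Most of these differences were small, with a median size of 0.35 on the log2 scale, and 65 genes (0.575%) were at least 2-fold higher and 54 (0.477%) at least 2-fold lower. The median over all tested genes was 0.016. In 1187 of the 1396 higher genes and 774 of the 939 lower genes the 15d-PGJ2-PC mean lay between the control mean and the 15d-PGJ2 mean. The same controls stand behind both compounds: against them 15d-PGJ2 changed 5338 genes (47.2%) and 15d-PGJ2-PC 3147 (27.8%), with 311 (2.75%) and 119 (1.05%) at least 2-fold higher and 387 (3.42%) and 107 (0.946%) at least 2-fold lower.

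**Figure D1:**
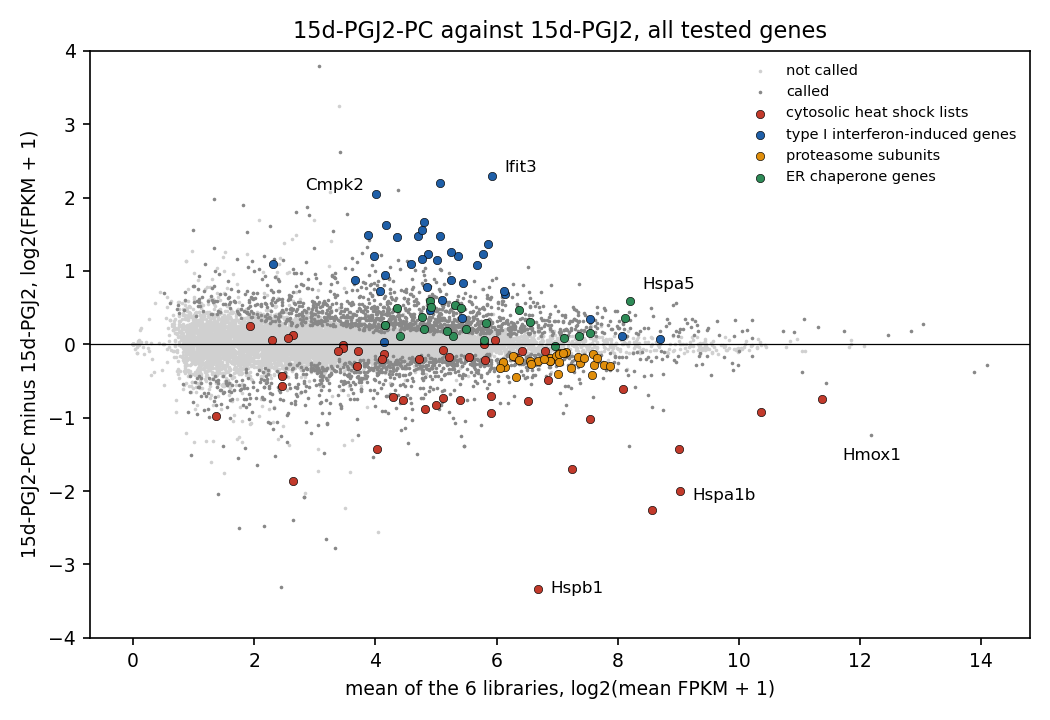
Difference between 15d-PGJ2-PC and 15d-PGJ2 (vertical axis, log2(FPKM + 1)) against the mean level of the 6 libraries (horizontal axis, log2(mean FPKM + 1)) for each of the 11309 tested genes, 1 point a gene, with genes that passed in darker grey and 4 gene groups in colour. Heat shock genes (red) reach down to -3.34 (Hspb1) and interferon-induced genes (blue) up to 2.29 (Ifit3), while the proteasome (orange) and endoplasmic reticulum (green) genes lie nearer 0.

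Promoters of 6 genes of 3 groups are printed to show the motif that the known activator of each group binds, and they were chosen because their window holds it. Each line gives the 250 bases before a transcript's annotated start site, from RefSeq on GRCm38.p6, written 5′ to 3′ along the gene. Capitals in the 2 heat shock genes mark a core heat shock element (GAANNTTC or TTCNNGAA), in the 2 Ifit genes an interferon-stimulated response element (GAAA, then any 2 bases, then GAAA, here as its reverse complement), and in the glutathione and thioredoxin genes an antioxidant response element (TGACNNNGC, also as its reverse complement).

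Hspb1 (chr5:135887669-135887918, + strand): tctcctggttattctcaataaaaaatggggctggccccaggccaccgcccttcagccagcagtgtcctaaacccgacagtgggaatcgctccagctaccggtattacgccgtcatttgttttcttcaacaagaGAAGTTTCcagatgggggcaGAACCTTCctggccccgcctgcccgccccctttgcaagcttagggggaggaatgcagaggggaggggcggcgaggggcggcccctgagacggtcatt

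Hspa1b (chr17:34959239-34959488, - strand): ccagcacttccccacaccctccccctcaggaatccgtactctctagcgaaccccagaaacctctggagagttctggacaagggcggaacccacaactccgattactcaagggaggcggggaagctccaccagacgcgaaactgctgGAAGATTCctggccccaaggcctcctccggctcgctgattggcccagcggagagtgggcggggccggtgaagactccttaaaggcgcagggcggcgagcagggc

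Ifit3 (chr19:34583279-34583528, + strand): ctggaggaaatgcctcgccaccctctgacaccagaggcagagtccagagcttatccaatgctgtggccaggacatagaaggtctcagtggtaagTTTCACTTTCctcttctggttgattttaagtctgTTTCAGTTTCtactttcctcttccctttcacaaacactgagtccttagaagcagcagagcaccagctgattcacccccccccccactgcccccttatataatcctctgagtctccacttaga

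Ifit1 (chr19:34640639-34640888, + strand): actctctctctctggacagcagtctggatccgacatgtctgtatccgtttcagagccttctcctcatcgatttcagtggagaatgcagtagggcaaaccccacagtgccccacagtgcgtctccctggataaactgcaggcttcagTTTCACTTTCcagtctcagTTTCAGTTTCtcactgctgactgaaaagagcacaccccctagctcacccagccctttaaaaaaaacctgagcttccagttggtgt

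Gclm (chr3:122245307-122245556, + strand): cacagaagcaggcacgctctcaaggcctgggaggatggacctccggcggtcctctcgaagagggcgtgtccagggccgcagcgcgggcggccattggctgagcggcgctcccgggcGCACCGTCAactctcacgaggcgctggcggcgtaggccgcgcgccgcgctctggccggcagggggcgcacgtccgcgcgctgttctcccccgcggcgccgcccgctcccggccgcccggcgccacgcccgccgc

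Txnrd1 (chr10:82858956-82859205, + strand): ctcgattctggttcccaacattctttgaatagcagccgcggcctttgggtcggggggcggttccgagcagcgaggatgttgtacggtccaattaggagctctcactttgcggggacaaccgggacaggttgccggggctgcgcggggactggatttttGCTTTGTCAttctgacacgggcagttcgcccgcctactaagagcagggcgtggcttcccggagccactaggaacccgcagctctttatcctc

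Counted from the start site, the matches of Hspb1 begin at -117 and -97, that of Hspa1b at -104, those of Ifit3 at -156 and -122, those of Ifit1 at -104 and -85, that of Gclm at -134 and that of Txnrd1 at -92. No match of their group's motif was in the windows of Ifit2, Nqo1 and Srxn1 or in the other 2 windows of Txnrd1. The Ifit3 window lies inside the span of the gene given further on, so its positions hold for that RefSeq transcript's start alone. All 3 motifs were searched on both strands, and matches of different motifs could overlap. A window was found for 9022 of the tested genes, and of these 12.3% held the heat shock motif, 3.44% the interferon motif and 14.1% the antioxidant motif. Of 37 cytosolic heat shock genes with a window 10 (27.0%) held the heat shock motif, and 8 of those 10 were lower with 15d-PGJ2-PC. Of all 46 tested heat shock genes, with or without the motif, 26 were lower. Of 27 type I interferon-induced genes with a window 12 (44.4%) held the interferon motif, and 11 of those 12 were higher. Of all 36 tested genes of that list 33 were higher, a like share. A link between motif and direction was not tested. The antioxidant motif stood in 11 of 59 antioxidant genes (18.6%), near the share of all genes. The interferon motif was in 0 of the 37 heat shock windows, and the heat shock motif in 5 of the 27 interferon windows (18.5%). A match describes the letters of a window and is not a measured binding site.

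Heat shock genes held some of the largest differences. Of 46 tested members of 4 cytosolic heat shock lists, 26 were lower with 15d-PGJ2-PC (8.3% of all tested genes were), 1 was higher and 19 did not pass, with a list median of -0.46 on the log2 scale beside 0.016 over all genes. In all 26 the 15d-PGJ2-PC mean lay between control and 15d-PGJ2. Hspb1 encodes the small heat shock protein Hsp25, which holds unfolding proteins (Entrez 15507, chromosome 5, 135887919 to 135889563). Its level was 139.5, 191 and 226 FPKM in the 3 15d-PGJ2 libraries, 13.1, 18.2 and 20.9 in the 3 15d-PGJ2-PC libraries and 5.0, 3.23 and 3.44 in the controls. The 3 groups did not overlap, and the 15d-PGJ2 mean was 10.7 times that of 15d-PGJ2-PC. The difference was -3.34 (SE 0.20, adjusted p = 3.71e-06), the lowest of all tested genes.

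The inducible Hsp70 genes Hspa1a and Hspa1b, whose protein refolds damaged proteins, are near-identical neighbours on chromosome 17, so reads may be split between them. Hspa1b stood at 654, 928 and 929 FPKM with 15d-PGJ2, 195, 184 and 241 with 15d-PGJ2-PC and 5.33, 4.32 and 3.73 in controls. Every 15d-PGJ2 library was above every 15d-PGJ2-PC library, which in turn were all far above the controls, and the difference between compounds was -2.0 (SE 0.15, adjusted p = 1.17e-05). Hspa1a differed by -2.26 (SE 0.20, adjusted p = 3.05e-05), with means of 627 and 129.8 FPKM. Of the 10 tested Hsp70 and Hsp110 genes, 6 were lower and 4 did not pass (median -0.86). The nucleotide exchange factor gene Hsph1 was at 232 ± 41 FPKM with 15d-PGJ2 and 70.4 ± 6.06 with 15d-PGJ2-PC (mean ± SD, n = 3), a difference of -1.70. The abundant, constitutive Hspa8 differed less in ratio, by -0.74, but from 3311 to 1979.5 FPKM. Hspa14, a ribosome-bound Hsp70, did not pass, with 17.4 and 15.8 FPKM and a 95% interval of the difference of -0.38 to 0.12. Such intervals are for single genes and not adjusted, so a few exclude 0 where the adjusted p misses the threshold.

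Among 13 tested genes of Hsp90 and its co-chaperones, 10 were lower and 3 did not pass (median -0.70). The stress-induced Hsp90aa1 was at 659, 787 and 822 FPKM with 15d-PGJ2, 266, 275 and 299.6 with 15d-PGJ2-PC and 104 to 119.8 in controls. No library of one compound reached the range of the other, and the difference was -1.42 (SE 0.083, adjusted p = 3.13e-06). Its constitutive sister Hsp90ab1 differed by -0.92, Stip1, which links Hsp70 to Hsp90, by -0.77, and Ahsa1, which speeds the Hsp90 ATPase, by -0.61. Cdc37, which brings kinases to Hsp90, did not pass (114 and 106 FPKM, 95% interval -0.19 to -0.010).

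Of 13 tested DnaJ genes, the partners that hand substrates to Hsp70, 6 were lower, 1 was higher and 6 did not pass (median -0.17). Dnaja4 was barely present in controls (0.18 to 0.42 FPKM) and stood at 6.16, 9.54 and 10.9 with 15d-PGJ2 and 1.49, 1.67 and 1.8 with 15d-PGJ2-PC. The compounds did not overlap, and the difference was -1.86 (SE 0.18, adjusted p = 4.36e-05). Dnaja1 differed by -1.02 and Dnajb1, the main stress-induced DnaJ gene, by -0.77 (51.9 and 29.9 FPKM). The higher member was Dnajc3, a chaperone of the endoplasmic reticulum (0.26), named after its value was seen. In the list of small heat shock, BAG and heat shock factor genes, 4 of 10 were lower and 6 did not pass (median -0.20), and the count was 2 without 15d-PGJ2 replicate 3. The Hsp70 co-factor Bag3 was lower, at -0.94 (SE 0.13, adjusted p = 4.52e-04), from 78.1 ± 9.36 to 40.1 ± 2.81 FPKM. Hsf1, the heat shock factor itself, passed narrowly at -0.20 (SE 0.062, adjusted p = 0.0436), and not without control replicates 1, 2 and 3 (0.0543, 0.0566 and 0.0546) or without 15d-PGJ2 replicates 1, 2 and 3 (0.0611, 0.127 and 0.107) or without 15d-PGJ2-PC replicates 1, 2 and 3 (0.15, 0.0627 and 0.0561). DnaJ genes that were higher went from 1 to 0 with 15d-PGJ2 replicate 2 or 3 or 15d-PGJ2-PC replicate 3 left out.

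**Figure D2:**
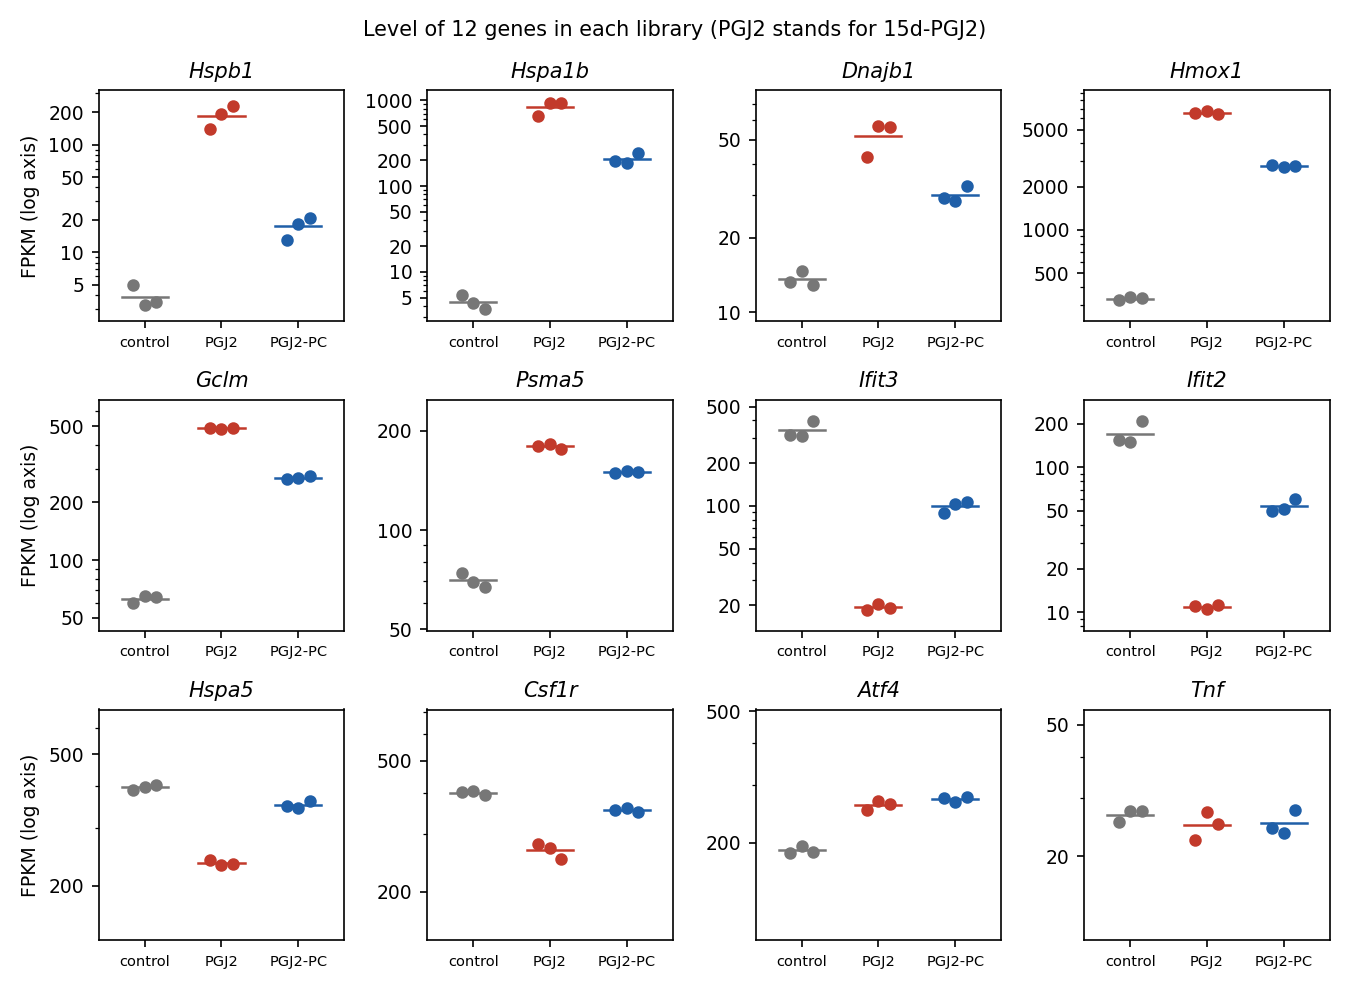
Level in FPKM (log axis) of 12 genes in each of the 9 libraries, with 1 point a library and a line at the mean of the 3 libraries of a group (control grey, 15d-PGJ2 red, 15d-PGJ2-PC blue; PGJ2 stands for 15d-PGJ2). For Hspb1, Hspa1b, Hmox1, Gclm and Ifit3 the 15d-PGJ2-PC libraries sit between control and 15d-PGJ2, while for Tnf the ranges of the 2 compounds overlap and for Atf4 they just touch.

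Other protein quality genes were lower too, by smaller steps, beside 8.3% lower over all tested genes. Of 8 chaperonin subunits, which fold actin and tubulin, 7 were lower and Cct4 did not pass (median -0.25). Cct4 passed without 15d-PGJ2 replicate 1 (0.0351). Of 9 mitochondrial chaperone genes only Hspd1 and its partner Hspe1, which form the mitochondrial folding chamber, were lower, at -0.93 and -0.83. Hspe1 was at 161, 184 and 197 FPKM with 15d-PGJ2 and 105, 99.4 and 97.9 with 15d-PGJ2-PC, without overlap. The proteasome degrades ubiquitin-tagged proteins, and 24 of its 31 tested subunit genes were lower, 0 higher and 7 not passed (median -0.22). All 31 had 15d-PGJ2-PC means between control and 15d-PGJ2, and the list medians against control were 0.95 for 15d-PGJ2 and 0.73 for 15d-PGJ2-PC. The core subunit gene Psma5 was at 180.0, 183 and 176 FPKM with 15d-PGJ2, 149, 151 and 150.4 with 15d-PGJ2-PC and 74.3, 69.8 and 67.2 in controls. Its compound groups did not overlap and differed by -0.26 (SE 0.040, adjusted p = 0.00115), less than either differed from control (1.34 and 1.08). Of 31 subunits 28 had a 95% interval within 0.5 on the log2 scale either way, where 8082 (71.5%) of all tested genes did.

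Ubiquitin and protein clearance genes were mostly lower, with 8 of 14 lower (8.3% of all tested genes were), 5 not passed and 1 higher. Sqstm1, the autophagy receptor p62, was at 3133, 3357 and 3329 FPKM with 15d-PGJ2 and 2254, 2229 and 2316 with 15d-PGJ2-PC, a difference of -0.53 (SE 0.034, adjusted p = 5.19e-06) without overlap. The ubiquitin gene Ubb did not pass (2169 and 2041 FPKM, 95% interval -0.20 to 0.024).

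Antioxidant and detoxification genes were lower as well. Over 6 lists, 39 of 71 tested members were lower, 7 higher and 25 not passed, with a median of -0.21. Of all tested genes 8.3% were lower and 12.3% higher, and these shares stand beside the counts of each list below. Hmox1, heme oxygenase 1, which breaks heme into biliverdin, iron and carbon monoxide (Entrez 15368, chromosome 8, 75093618 to 75100593), was at 6486, 6682 and 6453 FPKM with 15d-PGJ2, 2823, 2719.9 and 2799.8 with 15d-PGJ2-PC and 324, 339.8 and 333 in controls. The libraries of a group lay close together and the groups far apart, with a difference of -1.23 (SE 0.028, adjusted p = 4.50e-09) between compounds. The 15d-PGJ2 mean was 2.35 times the 15d-PGJ2-PC mean.

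Genes of glutathione synthesis and turnover and of cystine import were lower in 6 of 9 cases, with 3 not passed (median -0.36). Gclm and Gclc encode the 2 subunits of the rate-limiting ligase. Gclm was at 488, 482 and 489 FPKM with 15d-PGJ2, 264, 269.6 and 275 with 15d-PGJ2-PC and 59.9, 64.7 and 63.9 in controls. Its groups did not overlap and the compounds differed by -0.85 (SE 0.035, adjusted p = 4.91e-07), and Gclc differed by -0.92. Gss, which completes glutathione, differed by -1.01 (50.9 and 24.8 FPKM). The cystine importer Slc7a11 was at 60.2, 61.7 and 61.5 with 15d-PGJ2 and 35, 34.9 and 38 with 15d-PGJ2-PC, without overlap, a difference of -0.75 (SE 0.047, adjusted p = 4.19e-06). Its control libraries, at 26.1 to 27.3, lay not far below those of 15d-PGJ2-PC.

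Electrophile conjugation and export genes were lower in 8 of 12 cases, higher in 1 and not passed in 3 (median -0.38). Ptgr1, which reduces prostaglandins and other reactive lipids, was at 59.3, 58.4 and 60.0 FPKM with 15d-PGJ2 and 25.9, 29.5 and 29.2 with 15d-PGJ2-PC. These did not overlap and differed by -1.05 (SE 0.079, adjusted p = 1.17e-05). Its relative Ptgr2 was the higher member, at 17.9, 11.7 and 17 FPKM in control, 15d-PGJ2 and 15d-PGJ2-PC (difference 0.50). Of 14 thioredoxin and peroxiredoxin genes 7 were lower, 1 higher and 6 not passed (median -0.18). The peroxiredoxin repair enzyme gene Srxn1 differed by -0.70 (448 and 276 FPKM) and thioredoxin reductase Txnrd1 by -0.44 (397 and 293 FPKM). The higher member, Txnip, an inhibitor of thioredoxin, differed by 0.37. Thioredoxin and peroxiredoxin genes that were higher went from 1 to 2 with 15d-PGJ2 replicate 1 left out.

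Heme and iron genes were lower in 8 of 15 cases, higher in 2 and not passed in 5 (median -0.10), with 5 lower under quantile normalization. The ferritin chains Fth1 and Ftl1, which store iron, were among the most abundant transcripts and made up 5.96% to 6.02% of the FPKM sum with 15d-PGJ2-PC, against 7.29% to 7.47% for 15d-PGJ2 and 4.83% to 4.98% for controls. Fth1 differed by -0.28 (SE 0.021, adjusted p = 1.17e-05) and Ftl1 by -0.37 (SE 0.035, adjusted p = 4.21e-05). Neither passed under quantile normalization. That step gives every library the same ranked values, so it can remove differences of the most abundant transcripts by construction. It is therefore no test of these ferritin differences. Hmox2, the constitutive heme oxygenase, was 1 of the 2 higher genes (108, 44.7 and 69.6 FPKM in control, 15d-PGJ2 and 15d-PGJ2-PC, difference 0.63), and Ireb2, an iron regulatory protein gene, the other (0.32). These last 2 names were picked once their values were known.

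Genes that supply NADPH were lower in 5 of 9 cases and higher in 1, and quinone and carbonyl detoxification genes lower in 5 of 12 and higher in 2. Malic enzyme Me1 was at 26.1, 29.6 and 30.0 FPKM with 15d-PGJ2, 10.4, 11.9 and 14.6 with 15d-PGJ2-PC and 2.83, 2.63 and 3.69 in controls. The groups were apart, and the compounds differed by -1.16 (SE 0.13, adjusted p = 1.07e-04). The quinone reductase Nqo1 differed by -1.09, with 2.37, 11.5 and 4.84 FPKM in the 3 groups, and aldehyde oxidase Aox1 by -1.08. Of 12 tested Keap1 and Nrf2 regulators 5 were lower, 1 higher and 6 not passed. Regulators that were lower went from 5 to 3 with control replicate 1, 15d-PGJ2 replicate 1 or 2 or 15d-PGJ2-PC replicate 3 left out and to 2 with 15d-PGJ2 replicate 3 or 15d-PGJ2-PC replicate 1 or 2 left out. Nfe2l2, which encodes Nrf2, was at 80.0, 75.7 and 80.2 with 15d-PGJ2 and 79.7, 73.2 and 76.4 with 15d-PGJ2-PC, did not pass (adjusted p = 0.577), and had a 95% interval of -0.14 to 0.056. Keap1 did not pass either, with an interval of -0.087 to 0.13. Mafg, a small Maf partner of Nrf2, was lower, at -0.42 (SE 0.058, adjusted p = 5.06e-04). NADPH genes that were higher went from 1 to 0 with 15d-PGJ2-PC replicate 1 left out. Quinone and carbonyl genes that were higher went from 2 to 1 with 15d-PGJ2 replicate 1, 2 or 3 or 15d-PGJ2-PC replicate 2 left out.

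Of 6 tested metallothionein and zinc genes 2 were higher, 2 lower and 2 not passed. Metallothioneins bind zinc and copper. Mt2 was at 467, 459 and 482 FPKM with 15d-PGJ2 and 532, 527 and 537 with 15d-PGJ2-PC, with controls at 422 to 451, and differed by 0.18 (SE 0.032, adjusted p = 0.00264). Mt1 missed the threshold at 0.11 (SE 0.040, adjusted p = 0.0903), with an interval of 0.018 to 0.19, and passed without 15d-PGJ2-PC replicate 3 (0.0482). Mt3 was at 1.41, 1.78 and 2.48 FPKM with 15d-PGJ2 and listed at 0 in the 3 15d-PGJ2-PC libraries and the 3 controls. It reached the filter through the 15d-PGJ2 libraries alone. Mt3 is 1 of the 2 genes counted as lower, and no comparison of the compounds is drawn from it. Slc39a10, a zinc importer, was lower, at -0.62 (SE 0.11, adjusted p = 0.00281), with means of 2.28, 3.98 and 2.24 in control, 15d-PGJ2 and 15d-PGJ2-PC. Slc30a1, a zinc exporter, was higher by 0.26 (SE 0.045, adjusted p = 0.00226), with means in that order of 26.2, 29.9 and 35.9.

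**Figure D3:**
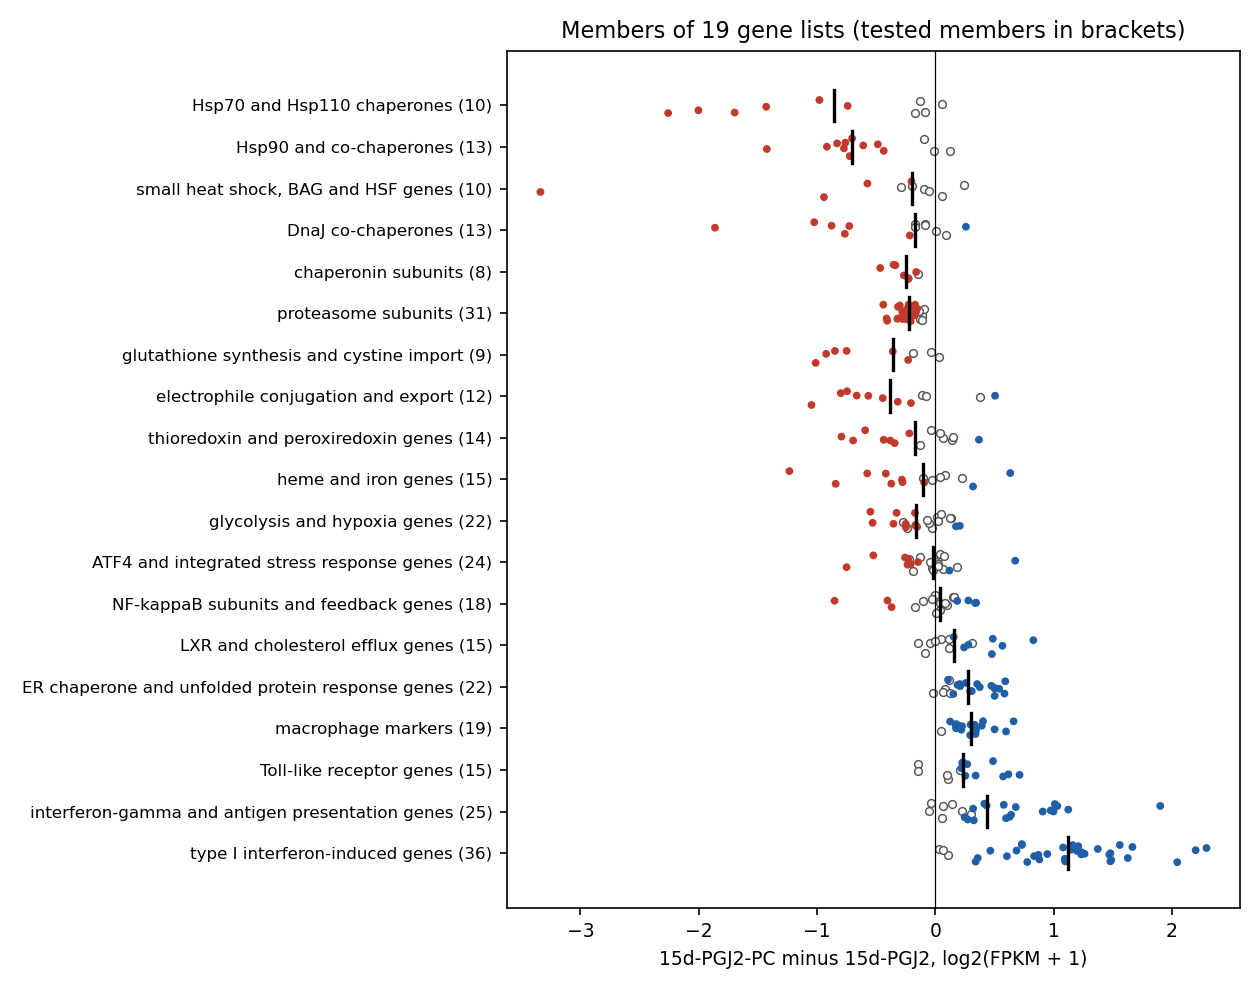
Difference between 15d-PGJ2-PC and 15d-PGJ2 (log2(FPKM + 1)) for each tested member of 19 gene lists, 1 point a gene, with tested members in brackets. Filled points passed (red lower, blue higher with 15d-PGJ2-PC), open points did not, and black bars are list medians, from -0.86 for Hsp70 and Hsp110 chaperones to 1.12 for type I interferon-induced genes.

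Interferon-induced genes had the most higher members of the 52 lists examined. Of 36 tested type I interferon-induced genes 33 were higher (12.3% of all tested genes were), 0 lower and 3 not passed, with a median of 1.12. All 36 had a 15d-PGJ2-PC mean between that of 15d-PGJ2 and the control. The list medians against the shared controls were -1.95 for 15d-PGJ2 and -0.78 for 15d-PGJ2-PC. Ifit3, which binds other Ifit proteins on foreign RNA (Entrez 15959, chromosome 19, 34583119 to 34588982), was at 18.6, 20.6 and 19.3 FPKM with 15d-PGJ2, 89.7, 103 and 106 with 15d-PGJ2-PC and 314, 313 and 397 in controls. The 3 groups did not overlap, and the 15d-PGJ2-PC mean was 5.1 times that of 15d-PGJ2, a difference of 2.29 (SE 0.093, adjusted p = 4.69e-07). Ifit3 may share reads with its near copy Ifit3b, which differed by 2.11.

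The RNA-binding family members Ifit2 and Ifit1 differed by 2.20 and 1.48. Ifit2 was at 11, 10.4 and 11.2 FPKM with 15d-PGJ2 and 49.7, 51.1 and 60.5 with 15d-PGJ2-PC, and its controls stood at 154, 149 and 208. Both compounds lay below the controls and the compounds were apart from each other. Cmpk2, a nucleotide kinase of mitochondria, was at 5.29 and 24.9 FPKM and differed by 2.04 (SE 0.13, adjusted p = 4.12e-06). The antiviral GTPase Mx1 differed by 1.63, the protease Usp18, which removes ISG15, by 1.56, and the oligoadenylate synthetase-like gene Oasl2 by 1.48. Rtp4 was among the tightest, at 30.3, 33.6 and 30.0 with 15d-PGJ2 and 80.6, 83.4 and 83.5 with 15d-PGJ2-PC, differing by 1.37 (SE 0.055, adjusted p = 4.69e-07). Isg15, a ubiquitin-like protein gene, was higher by 0.69 (53 and 86.4 FPKM).

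The 3 interferon-induced genes that did not pass were Irf7, Bst2 and Isg20. Irf7, a transcription factor that amplifies interferon production, was at 260.1, 249.9 and 262 FPKM with 15d-PGJ2 and 290.0, 273 and 269.8 with 15d-PGJ2-PC and missed the threshold at 0.11 (SE 0.035, adjusted p = 0.0514). Its 95% interval was 0.031 to 0.19, and it passed without 15d-PGJ2-PC replicate 3 (0.0492). Bst2, which tethers virus particles, had an interval of -0.038 to 0.17. Isg20, named after its value was seen, had an interval of -0.20 to 0.27.

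Of 25 interferon-γ and antigen presentation genes, 18 were higher (12.3% of all tested genes were), 0 lower and 7 not passed (median 0.43). Irgm1, an immunity-related GTPase, was at 21.5, 19 and 22.4 FPKM with 15d-PGJ2 and 44.7, 41.8 and 44.9 with 15d-PGJ2-PC, below 77.4 to 96.1 in controls, without overlap. It differed by 1.03 (SE 0.083, adjusted p = 1.62e-05). B2m, the light chain of class I molecules, did not pass, at 3609.9 and 3753 FPKM with an interval of 0.0023 to 0.11. Of 10 interferon receptor, kinase and IRF genes 5 were higher and 5 not passed, among them Ifngr1, a chain of the interferon-γ receptor (0.58), and the kinase gene Tyk2 (0.35), while Jak1 did not pass (interval -0.11 to 0.12).

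Endoplasmic reticulum genes were also higher with 15d-PGJ2-PC, in 17 of 22 cases (12.3% of all tested genes were), with 0 lower and 5 not passed (median 0.28). Hspa5, the reticulum chaperone BiP, was at 239, 231 and 233 FPKM with 15d-PGJ2, 349.8, 345 and 361 with 15d-PGJ2-PC and 391, 399 and 405 in controls. The groups were apart, and the compounds differed by 0.58 (SE 0.030, adjusted p = 1.89e-06). Hyou1, a partner of BiP, differed by 0.59, the disulfide isomerase Pdia4 by 0.54 and Herpud1, which helps clear misfolded proteins, by 0.47. This direction is the opposite of that of the cytosolic chaperones.

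Genes driven by ATF4 in the integrated stress response were lower with 15d-PGJ2-PC in 7 of 24 cases (8.3% of all tested genes were lower), higher in 2 (12.3% were higher) and not passed in 15 (median -0.023). The list medians against control were 0.32 for 15d-PGJ2 and 0.30 for 15d-PGJ2-PC. In 21 of the 24 the 95% interval lay within 0.5 either way. Of the lower members, Slc7a11 and Slc3a2, which pair as the cystine importer, are also in the glutathione list. Atf5, a transcription factor related to ATF4, was at 195, 192 and 199 FPKM with 15d-PGJ2, 137, 138 and 131 with 15d-PGJ2-PC and 112, 112 and 105 in controls. Its 3 groups did not overlap, and the compounds differed by -0.52 (SE 0.038, adjusted p = 9.15e-06). Aars, which charges the transfer RNA of alanine, was lower, at -0.26 (SE 0.049, adjusted p = 0.00409). Atf4 itself was at 251, 267 and 261 FPKM with 15d-PGJ2 and 274, 267 and 276 with 15d-PGJ2-PC, with ranges that just overlapped, a difference of 0.067 (SE 0.034, adjusted p = 0.205) and an interval of -0.0090 to 0.14. Trib3, a pseudokinase induced by ATF4, had an interval of -0.17 to 0.12, the glutathione-degrading Chac1 -0.26 to 0.33 and Atf3 -0.13 to 0.13. Ddit3, the factor CHOP, was higher by 0.12 (SE 0.034, adjusted p = 0.0332), a call not kept without 15d-PGJ2 replicates 1 and 2 (0.102 and 0.1) or without 15d-PGJ2-PC replicates 1 and 3 (0.0689 and 0.114). ATF4 genes that were higher went from 2 to 1 with 15d-PGJ2 replicate 1 or 2 or 15d-PGJ2-PC replicate 1 or 3 left out.

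**Figure D4:**
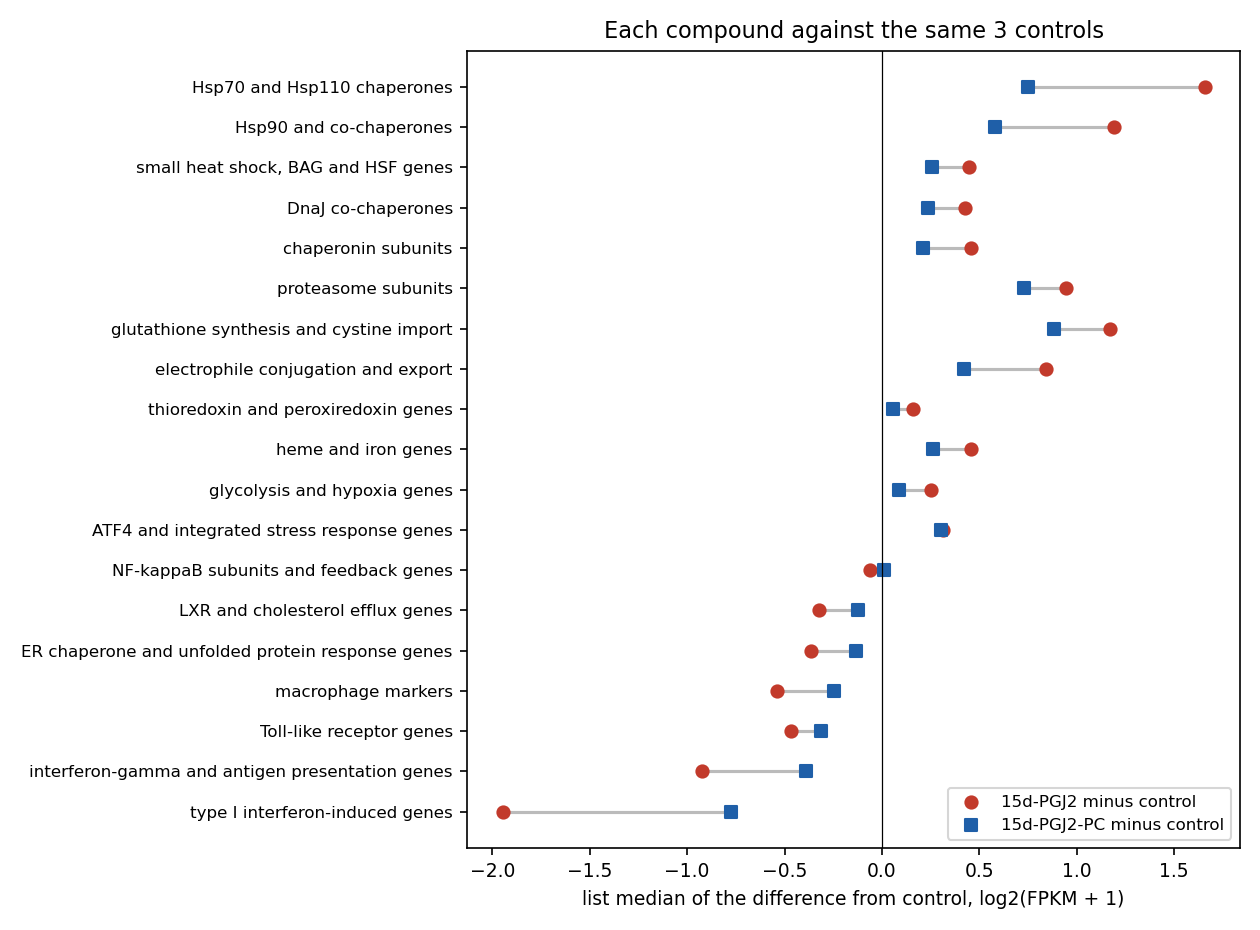
Median difference from control (log2(FPKM + 1)) over the tested members of 19 gene lists, for 15d-PGJ2 (red circles) and 15d-PGJ2-PC (blue squares), both against the same 3 control libraries, so the 2 sets of points share their controls. The red circle lies farther from 0 for heat shock and interferon lists, at 1.66 and 0.75 for Hsp70 genes and -1.95 and -0.78 for type I interferon-induced genes, and close to the square for ATF4 genes (0.32 and 0.30).

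Inflammatory genes were mixed, beside 12.3% higher and 8.3% lower over all tested genes. Of 16 cytokine genes 3 were higher, 3 lower and 10 not passed, of 14 chemokines 4, 2 and 8, and of 18 NF-κB subunits and feedback genes 4, 3 and 11. Cxcl2, a neutrophil chemoattractant, was at 26.3, 35.2 and 35.9 FPKM with 15d-PGJ2, 10.5, 11.7 and 14.2 with 15d-PGJ2-PC and 4.19, 5.72 and 3.73 in controls. The compounds did not overlap and differed by -1.35 (SE 0.16, adjusted p = 1.69e-04). Il12b, the p40 chain of interleukin-12 and interleukin-23, was at 0.29, 0.44 and 0.58 with 15d-PGJ2, 2.51, 1.94 and 3.32 with 15d-PGJ2-PC and 2.91, 3.24 and 3.75 in controls, a difference of 1.31 (SE 0.16, adjusted p = 2.25e-04). The 15d-PGJ2-PC libraries of Il12b were near the controls and all above those of 15d-PGJ2. Cytokine genes that were lower went from 3 to 1 with 15d-PGJ2 replicate 2 or 3 or 15d-PGJ2-PC replicate 1 left out. Chemokine genes that were lower went from 2 to 1 with control replicate 2, 15d-PGJ2 replicate 2 or 3 or 15d-PGJ2-PC replicate 1 or 2 left out.

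Tnf was at 22.4, 27.3 and 25.1 FPKM with 15d-PGJ2 and 24.3, 23.5 and 27.7 with 15d-PGJ2-PC and did not pass (adjusted p = 0.929, interval -0.16 to 0.19). The interval was -0.29 to 0.28 for Il1b and -0.075 to 0.078 for Nfkbia, the NF-κB inhibitor gene. Ptgs2, cyclooxygenase 2, was at 3.71 and 1.58 FPKM and lower by test, at -0.85 (SE 0.19, adjusted p = 0.00826). Il6 was low throughout, at 1.53, 2.05 and 1.93 with 15d-PGJ2 and 0.85, 1.13 and 0.34 with 15d-PGJ2-PC, and differed by -0.70 (SE 0.20, adjusted p = 0.0329), a call lost without 15d-PGJ2 replicates 2 and 3 (0.105 and 0.0912) or without 15d-PGJ2-PC replicates 1 and 3 (0.0608 and 0.102). Ccl2, the main monocyte chemoattractant, was at 4.61, 6.05 and 7.17 with 15d-PGJ2, 2.99, 2.08 and 4.4 with 15d-PGJ2-PC and 6.15, 8.04 and 11.3 in controls. Its difference of -0.76 (SE 0.24, adjusted p = 0.0442) was not kept without control replicate 2 (0.0638) or without 15d-PGJ2 replicates 2 and 3 (0.11 and 0.143) or without 15d-PGJ2-PC replicates 1 and 2 (0.102 and 0.149). Toll-like receptors sense microbial products. Of 15 genes of these receptors and of their co-receptors, adaptors and kinases, 10 were higher and 5 did not pass (median 0.23). They were led by the nucleic acid sensors Tlr8 (0.71), Tlr9 (0.62) and Tlr7 (0.49).

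Lipid genes were examined because 15d-PGJ2 is a PPARγ ligand and 15d-PGJ2-PC a phospholipid. Their counts stand beside 12.3% higher and 8.3% lower over all tested genes. Of 20 tested PPAR target and pathway genes 3 were higher, 4 lower and 13 not passed (median 0.0095), and 18 had an interval within 0.5. Pparg was at 10.9, 11.6 and 12 FPKM with 15d-PGJ2 and 8.48, 10.3 and 12 with 15d-PGJ2-PC, with an interval of -0.40 to 0.082. The fatty acid binding protein gene Fabp4 had an interval of -0.33 to 0.15, the fatty acid transporter gene Cd36 -0.17 to 0.0031 and Angptl4, a lipase inhibitor, -0.10 to 0.26. Cd36 passed without 15d-PGJ2-PC replicate 1 (0.0428). Plin2, which coats lipid droplets, missed the threshold at 0.10 (SE 0.033, adjusted p = 0.0532) and passed without control replicate 3 (0.0495) or without 15d-PGJ2 replicate 3 (0.0275) or without 15d-PGJ2-PC replicate 3 (0.0325).

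**Figure D5:**
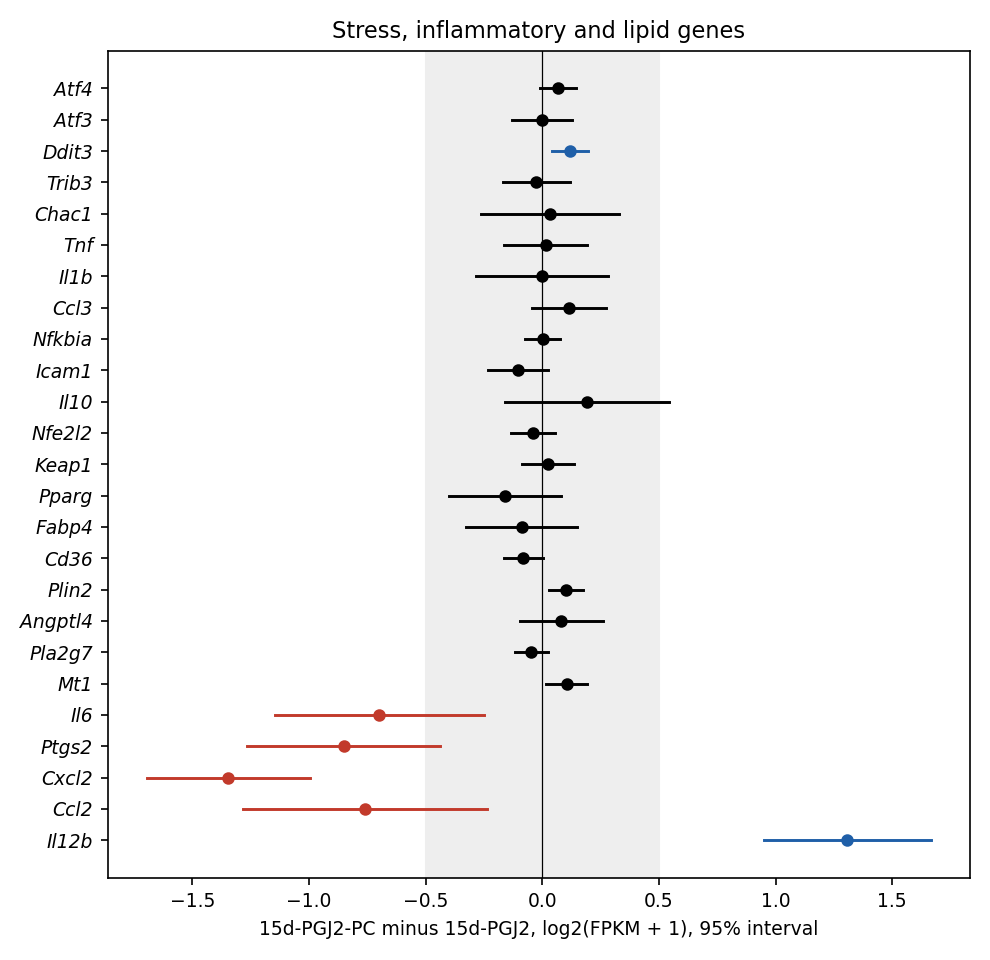
Difference between 15d-PGJ2-PC and 15d-PGJ2 (log2(FPKM + 1), points) with its 95% interval (lines) for 25 stress, inflammatory and lipid genes, not adjusted for the number of genes. Grey shading spans -0.5 to 0.5, and black marks genes that did not pass, red lower and blue higher ones. Nfe2l2 and Pparg lie within the shading, while Cxcl2 lies below and Il12b above it.

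Genes of the sterol sensor LXR, of its targets and of cholesterol transport were higher in 7 of 15 cases, lower in 0 and not passed in 8 (median 0.15). Nr1h3, which encodes LXRα, was at 55.7, 55.8 and 52.3 FPKM with 15d-PGJ2, 91.8, 98.8 and 103 with 15d-PGJ2-PC and 126, 125 and 122 in controls, without overlap between the compounds. It differed by 0.83 (SE 0.047, adjusted p = 2.97e-06). The cholesterol exporters Abca1 and Abcg1 differed by 0.57 and 0.48. LXR genes that were lower went from 0 to 1 with 15d-PGJ2 replicate 2 left out.

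Phospholipases and phospholipid remodelling enzymes, which act on lipids of the kind to which 15d-PGJ2-PC belongs, numbered 32 tested, 6 of them higher, 3 lower and 23 not passed (median 0.032). These counts lay not far from the shares of all tested genes (12.3% higher, 8.3% lower), so the list as a whole did not stand out. Abhd3, which cleaves phosphatidylcholines, was at 6.18, 8.93 and 6.68 FPKM with 15d-PGJ2, 1.42, 2.47 and 3.05 with 15d-PGJ2-PC and 0.28 to 0.66 in controls. The compounds did not overlap and differed by -1.34 (SE 0.20, adjusted p = 8.58e-04). The lysosomal gene Pld4 was higher by 0.50 (179.6 and 254 FPKM), and the lipase gene Daglb by 0.55. Pla2g7, which encodes a phospholipase A2 that cleaves oxidized phospholipids, was at 191, 180.2 and 185 with 15d-PGJ2 and 181, 178 and 179 with 15d-PGJ2-PC and did not pass (interval -0.12 to 0.023). Among scavenger receptors 7 of 11 were higher, among them Msr1 (0.42), 1 was lower, Marco (-0.28), and 3 did not pass. Of 15 eicosanoid genes 2 were higher and 2 lower, again not far from the shares of all tested genes. Cyclooxygenase 1, Ptgs1, was at 5.71, 1.54 and 2.81 FPKM in the 3 groups (0.59). Eicosanoid genes that were higher went from 2 to 4 with 15d-PGJ2-PC replicate 1 left out. Eicosanoid genes that were lower went from 2 to 1 with 15d-PGJ2-PC replicate 3 left out.

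Macrophage markers were higher with 15d-PGJ2-PC in 17 of 19 cases (12.3% of all tested genes were), with Trem2 and Tyrobp not passed (median 0.30). Csf1r, the receptor for the growth factor M-CSF, was at 278, 272 and 252 FPKM with 15d-PGJ2, 353, 359 and 349 with 15d-PGJ2-PC and 401, 405 and 392 in controls. The compounds were apart and differed by 0.40 (SE 0.038, adjusted p = 4.18e-05). Mertk, which recognizes dying cells, differed by 0.66. Trem2 had an interval of 0.049 to 0.30 and passed without control replicates 1 and 3 (0.0466 and 0.023) or without 15d-PGJ2 replicate 1 (0.013). None of the 3 tested erythroid markers passed, but they reached the filter through the controls, so no comparison of the compounds is drawn from them. The listed erythroid genes summed to 23.8 to 31.9 FPKM in controls, 0.45 to 0.9 with 15d-PGJ2 and 0.12 to 0.91 with 15d-PGJ2-PC. No mast cell marker reached the filter. Of markers of other cells, 2 of 7 neutrophil, 1 of 3 dendritic, 1 of 2 lymphocyte, 2 of 5 osteoclast and 1 of 3 endothelial genes were higher, and 1 endothelial and 1 stromal gene lower. These lists are small, and over all tested genes 12.3% were higher and 8.3% lower. The part of these other cells in the higher macrophage genes was not tested. Neutrophil markers that were higher went from 2 to 1 with 15d-PGJ2 replicate 3 or 15d-PGJ2-PC replicate 2 or 3 left out. Dendritic markers that were higher went from 1 to 0 with 15d-PGJ2 replicate 1 or 2 or 15d-PGJ2-PC replicate 2 or 3 left out. Lymphocyte markers that were higher went from 1 to 2 with 15d-PGJ2 replicate 1 left out.

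Growth and survival genes went both ways. Over all tested genes 12.3% were higher and 8.3% lower. Immediate early genes had higher members near that share and lower members above it, and cell cycle genes had fewer of both. Cdkn2b, the cell cycle inhibitor p15, was at 28.9, 35.1 and 31.4 FPKM with 15d-PGJ2, 15.1, 14.7 and 15.4 with 15d-PGJ2-PC and 1.94, 1.82 and 2.35 in controls, without overlap, a difference of -1.03 (SE 0.088, adjusted p = 2.55e-05). Of 15 CDK inhibitor and checkpoint genes 5 were lower, 3 higher and 7 not passed. Of 19 immediate early genes 4 were lower, 2 higher and 13 not passed: the AP-1 member Fosl1 was lower (-1.06) and Zfp36l1, which marks messenger RNA for decay, higher (0.92). Of 15 BCL2 family genes, which act for or against cell death, 5 were higher, 3 lower and 7 not passed. The survival gene Mcl1 was higher by 0.49 (128 and 179 FPKM), and the death gene Pmaip1 lower (-0.61). Of 26 cell cycle genes 1 was higher, 0 lower and 25 not passed, and 15 had an interval within 0.5. Immediate early genes that were higher went from 2 to 1 with control replicate 2, 15d-PGJ2 replicate 1, 2 or 3 or 15d-PGJ2-PC replicate 1, 2 or 3 left out. Cell cycle genes that were higher went from 1 to 2 with 15d-PGJ2-PC replicate 3 left out. BCL2 family genes that were higher went from 5 to 3 with 15d-PGJ2-PC replicate 3 left out. BCL2 family genes that were lower went from 3 to 1 with 15d-PGJ2 replicate 2 or 3 or 15d-PGJ2-PC replicate 3 left out.

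Of 22 glycolysis and hypoxia genes 10 were lower, 2 higher and 10 not passed (median -0.16), beside 8.3% lower and 12.3% higher over all tested genes. The glucose importer Slc2a1 was at 57, 64.9 and 55.7 FPKM with 15d-PGJ2 and 40.2, 39.9 and 41.6 with 15d-PGJ2-PC, without overlap, and differed by -0.53 (SE 0.082, adjusted p = 0.00105). Pkm and Aldoa, enzymes of glycolysis, differed by -0.35 and -0.25. Ribosomal protein genes gave 1 lower of 30 with all 30 intervals within 0.5, and all 27 oxidative phosphorylation genes had such intervals. Of 23 cholesterol synthesis genes 5 were higher in the fit with all libraries, 1 was lower and 17 did not pass. Leaving out a library lowered the 5 to 3 (control replicate 1 or 2, 15d-PGJ2-PC replicate 1 or 3) or to 2 (15d-PGJ2 replicate 3). Ribosomal protein genes that were lower went from 1 to 0 with control replicate 2, 15d-PGJ2 replicate 2 or 3 or 15d-PGJ2-PC replicate 2 left out and to 10 with control replicate 3 left out and to 2 with 15d-PGJ2-PC replicate 1 left out.

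Genes in none of the lists carried further large differences. The lowest of those named by rule were the histone gene Hist2h3c2 (-2.77), a call not kept without 15d-PGJ2 replicates 2 and 3 (0.065 and 0.0709) or without 15d-PGJ2-PC replicates 2 and 3 (0.0886 and 0.0832), and the small nuclear RNA gene Rnu1a1 (-2.48). Procr, the protein C receptor, differed by -1.25 (59 and 24.3 FPKM), Phlda1 by -1.48, Nckap1, part of the actin-regulating WAVE complex, by -1.25, and Dnmt3l, a cofactor of DNA methylation, by -1.23. The higher genes outside the lists named by rule included Ifit3b (2.11), Abcg3, Pydc3 (1.78) and the GTPase genes Tgtp2 (1.80), Ifi47 (1.42), Gbp9 (1.32) and Gbp6 (1.31). Abcg3, a transporter gene, was at 2.55, 1.49 and 2.5 with 15d-PGJ2, 11.2, 10.5 and 9.69 with 15d-PGJ2-PC and 17, 14.9 and 14.2 in controls, and differed by 1.87 (SE 0.13, adjusted p = 9.32e-06). The highest difference of all tested genes was that of the microRNA gene Mir6935, named after its values were seen. It was listed at 0 in the controls and with 15d-PGJ2 and at 25.3, 12.7 and 6.36 FPKM with 15d-PGJ2-PC, so it reached the filter through the 15d-PGJ2-PC libraries alone, and the fitted value of 3.79 depends on the pseudocount.

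RNAs without a poly(A) tail and replication histone transcripts were lower with 15d-PGJ2-PC, in 9 of 12 tested members, with 3 not passed (median -0.94). Of all tested genes 8.3% were lower. Rn7sk, the 7SK RNA that holds back transcription elongation, was at 415, 430.4 and 420.1 with 15d-PGJ2, 162, 165 and 153 with 15d-PGJ2-PC and 102, 101 and 73.7 in controls. It differed by -1.39 (SE 0.10, adjusted p = 9.39e-06). Hist1h2bq and Hist1h2br carry identical values in every library and may share reads, so their separate values are uncertain. The 3 groups of Rn7sk did not overlap.

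A small number of genes set 15d-PGJ2-PC outside the range of the other groups. It was higher than both 15d-PGJ2 and control, by test, for 58 genes (0.513%) and lower than both for 24 (0.212%). Cd200r1, an inhibitory receptor of myeloid cells, was at 32.8, 31.3 and 31.9 FPKM in the control libraries, 23.8, 20.8 and 22.9 with 15d-PGJ2 and 37.3, 38.5 and 34.2 with 15d-PGJ2-PC, a difference between compounds of 0.68 (SE 0.062, adjusted p = 3.32e-05). Against the shared controls 9 genes passed in opposite directions, 6 of them higher with 15d-PGJ2-PC and lower with 15d-PGJ2, and all 9 also differed between the compounds. Besides Cd200r1 these held Pmp22, a membrane protein gene (0.57), Nceh1, a cholesterol ester hydrolase gene (0.36), and Gja1, the gap junction gene connexin 43, which was lower with 15d-PGJ2-PC (-0.78). Arrdc3, an arrestin-like gene, was below both, at 16.8, 14 and 7.9 FPKM in control, 15d-PGJ2 and 15d-PGJ2-PC (-0.75), and Camk2g, a calcium-dependent kinase gene, above both (7.38, 6.92 and 11.3, 0.64). These 5 were named after their values were seen.

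For most genes no difference between the compounds was found. Of the 11309 tested, 8974 (79.4%) did not pass, and for 6960 of those (61.5% of all tested) the 95% interval of the difference lay within 0.5 on the log2 scale either way. For the other genes that did not pass, the 6 libraries leave room for a difference larger than 0.5. A p that misses the threshold does not show that the compounds act alike. At an unadjusted p under 0.05 the count was 3697 (32.7%), and 4214 genes (37.3%) had no overlap between the libraries of the 2 compounds.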

How the data were processed

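RNA from bone marrow-derived macrophages was sequenced in 9 libraries, 3 each for control, 15d-PGJ2 and 15d-PGJ2-PC. Per the labels' protocols, RNA was taken with Trizol and the TruSeq RNA kit of Illumina was used. The authors deposited 1 table of FPKM values for 18049 genes. Per the submitters' processing notes, BWA and the build mm10 were used; the counting tool is not given in the sources used here, nor is the BWA version. All 9 sample columns were used as deposited. Symbols that a spreadsheet had turned into dates (23) were restored from the Entrez number, and coordinates on GRCm38 were found for 18000 genes.

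Genes reaching 1 FPKM in 3 or more libraries (11309) were tested on log2(FPKM + 1), a scale that understates the change of low genes, with limma 3.58.1 in R 4.3.3: moderated 2-sided test, intensity trend, 1 residual variance per gene over all 9 libraries, no covariate, Benjamini-Hochberg adjustment over all tested genes, threshold 0.05. FPKM is no count, so no count model was run. Every difference is on the log2(FPKM + 1) scale, every adjusted p comes from this test, SE is its standard error, and 95% intervals are not adjusted. The fit was tested on simulated data. Exact permutation of 3 against 3 libraries cannot go below p = 0.1.

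The members and the 52 gene lists (846 distinct genes, 747 tested) were chosen with earlier results of these data known. Counts and medians describe them and no set test was run. Genes were named by rule: per direction the 15 largest differences, and the 15 largest outside the lists, among genes that passed with no overlap and a higher mean of at least 5 FPKM, leaving out microRNA, small nucleolar RNA and unnamed gene models; of each list the 6 smallest p and the 2 most abundant members that did not pass; and a fixed set. Other names were chosen after their values were seen: Lyz2 and Krt5, Krt1, Krt14 and Lor as checks of the cell type, and those so marked. Some genes that the rule names are not reported here. Alternatives were the pseudocount, the filter, scaling, the variance trend, the libraries in the fit, a replicate block and leaving out each library.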

Additional observations from a re-analysis of the deposited data

How the results depend on the processing

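Leaving out each of the 9 libraries in turn gave 1092 to 1405 higher and 672 to 968 lower genes between the compounds, 65 to 81 at least 2-fold higher and 49 to 59 at least 2-fold lower, and 7420 to 8077 with an interval within 0.5. Small heat shock, BAG and heat shock factor genes counted 2 to 4 lower members in those fits, with 2 without 15d-PGJ2 replicate 3. With a pseudocount of 0.1, 111 genes were at least 2-fold higher in place of 65, and a smaller pseudocount by construction widens the log2 scale of low values. With no filter, 13601 of 18049 genes had an interval within 0.5 in place of 8082, since more genes were tested. Quantile normalization left 5 lower heme and iron genes in place of 8, with the abundant Fth1 and Ftl1 among those lost. It also turned Ctsd, a lysosomal protease gene, from -0.020 (adjusted p = 0.666) to 0.17 (adjusted p = 0.00859). The cause of the Ctsd change was not tested. With quantile normalization or median centring 52.7% of the genes that passed were higher, beside 59.8%.

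The replicate number as a block in the fit gave 2215 genes that passed in place of 2335. No pairing by replicate number was seen. The correlation of deviations from the group means ran from -0.043 to 0.052 between same-numbered libraries. Between differently numbered libraries it ran from -0.070 to 0.098. With 3 libraries a group this cannot show that the libraries were not paired. The 6 libraries of the 2 compounds alone gave 2128. Of 410 genes named by rule or held for naming, 337 kept their call in every fit that gave a value, and 73 changed in at least 1. At an estimated 5.37 to 5.48 M reads a library, a figure bounded by the preset window, low genes have wide intervals.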
